A study of Rattus norvegicus with 12 samples.

Results

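The tumour necrosis factor (TNF) superfamily was examined in the cerebral cortex of rats after embolic stroke. Its genes were taken from the count table by their symbols, which were the numbered Tnfsf, Tnfrsf, Tnfaip and Traf genes together with Tnf, Lta, Ltb, Ltbr, Fas, Faslg, Cd27, Cd40 and Cd70. This gave 56 of the 17268 genes of the table, namely 15 ligands, 5 receptors with a death domain, 15 other signalling receptors, 3 decoy or decoy-like receptors, 7 TRAF adaptors, 3 proteins that bind TRAF3 and 8 TNF-induced (TNFAIP) genes. Cd40lg, the ligand of Cd40, was not analysed here.

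TNF superfamily ligands are membrane proteins that can be shed, and they bind receptors as trimers. Receptors with a death domain, such as those for TNF, Fas ligand and TRAIL, can start caspase or RIPK signalling. Other receptors recruit TRAF adaptors and activate NF-kappaB and MAP kinases, while decoy receptors bind a ligand without passing a signal on. In the brain, microglia, astrocytes, endothelial cells and infiltrating leukocytes use this system after ischemia, and Tnfaip3, which encodes the deubiquitinase A20, is a classical NF-kappaB target that limits the pathway.

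RNA was sequenced from the cortex of 12 adult male Sprague Dawley rats, 1 library per animal, at 3 animals for each of 4 treatments. Sham rats were operated on without a clot. Model rats had a clot of donor rat blood placed in the middle cerebral artery, and received neither rt-PA nor acupuncture. The rt-PA rats had the same stroke and the thrombolytic rt-PA (recombinant tissue plasminogen activator) at 6 h, which is beyond its usual time window, and the rt-PA+Acu rats also had acupuncture at the points GV26 and PC6 at 2 h. The study had no stroke group with acupuncture and no rt-PA, and no sham group with rt-PA, so the difference between rt-PA+Acu and rt-PA, named the acupuncture comparison here, is that of acupuncture added to rt-PA. The number of hours from stroke to tissue collection for sequencing is not given here.

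Levels are CPM, counts scaled to the library total and by TMM, edgeR's library scaling, and are compared within a gene only, because CPM do not allow for gene length. Total counts were 11678450 to 13616935 per library, so that 3 counts stood for 0.208 to 0.262 CPM. Values in each group are listed for replicates 1, 2 and 3. A gene was called when edgeR's quasi-likelihood test gave a Benjamini-Hochberg adjusted p under 0.05 over all genes tested and the absolute log2 fold change was over 1. Of the 56 genes, 44 passed edgeR's filter on low counts in at least 1 of 6 comparisons and 32 in all 6. The 12 that passed in none were Cd27, Cd70, Lta, Tnfrsf4, Tnfrsf8, Tnfrsf13b, Tnfrsf13c, Tnfrsf14, Tnfrsf17, Tnfrsf18, Tnfsf11 and Tnfsf14. Cd27 and Tnfrsf13b had at most 3 counts in every library. Counts over the genes that passed describe these libraries only, since a gene that passes through 1 group alone is likely to differ.

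Some libraries stood apart within their group. On the first principal component of the 500 most variable genes, which held 80.3% of the variance, rt-PA+Acu replicate 3 lay at -11.5 and the other rt-PA+Acu libraries at -35.5 and -33.7, with Sham between -44.8 and -43.7, Model between 27.7 and 38.9 and rt-PA between 32.8 and 42.5. Model replicate 3 had 142 counts of the ribosomal gene Rpl39, inside the Sham range of 105 to 151, while the other stroke libraries had 488 to 990. Neuronal transcripts were found in each group, with 10 neuronal markers summing to between 5546 and 9133 CPM. That sum does not show which part of the cortex was sampled. In Model vs Sham, 5 of the 10 had a positive and 5 a negative log2 fold change. The mean of Slc17a7 was 1408 CPM in Sham, 768 in Model, 642 with rt-PA and 1427 with rt-PA+Acu. For Gad1 it was 266, 484, 497 and 404 in the same order. Cell type markers moved with the groups. The summed level of 9 monocyte and macrophage markers was 6.12 to 20.9 CPM in Sham, 124 to 156 in Model, 197 to 230 with rt-PA and 18.3 to 42.0 with rt-PA+Acu. Most of the Model sum was Cd14 and Msr1, with means of 91.2 and 26.8 CPM, against 0.826 and 0.231 in Sham. Other markers of this list differed little, such as Arg1, with a mean of 2.86 CPM in Sham and 2.83 in Model. The 10 neutrophil markers summed to 8.10 to 13.0 CPM in Sham, 7.71 to 19.2 in Model, 17.0 to 84.8 with rt-PA and 6.46 to 7.02 with rt-PA+Acu, with Mpo at 0 in all 12 libraries. Endothelial markers, 9 genes, summed to 554 to 610 CPM in Sham, 666 to 975 in Model, 837 to 1102 with rt-PA and 327 to 376 with rt-PA+Acu. The 8 markers of meninges and fibroblasts summed to 88.5 to 156.5, 60.8 to 125.3, 125.2 to 415 and 101 to 183.6 CPM in the same order. For 6 choroid plexus markers the sums were 1.85 to 2.37, 11.15 to 48.68, 10.85 to 69.33 and 3.14 to 15.1 CPM, with Ttr at 3 counts or fewer in every library. Microglial markers lay between 504 and 789 CPM throughout, and 6 B cell markers at 3.47 CPM or less. The T and NK cell sum was 9.52 to 13.3 CPM in Sham and 39.2 to 93.8 in Model, but almost all of it was Il7r, and Cd3e had at most 7 counts in any library. In bulk cortex, fewer cells of a type and less RNA per cell cannot be told apart, and the part of these cell types in the results that follow was not tested.

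Promoter sequences are shown for 3 of the genes on which the results turn. Tnfrsf12a and Tnfsf18 had the highest fold changes of the called genes in Model vs Sham, and Tnfaip3 was the gene among them whose promoter held every motif searched. RefSeq held a single promoter entry for 45 of the 56 genes, in the assembly GRCr8, as 250 bases before to 50 bases after the annotated transcription start. The sequences below end at the base before the start, run 5′ to 3′ on the strand of the gene, and lie outside the annotated transcript. Capitals mark motif matches. They span chr1:15543980-15544229 on the minus strand for Tnfaip3, chr10:13213649-13213798 on the minus strand for Tnfrsf12a and chr13:76366703-76366852 on the plus strand for Tnfsf18.
Tnfaip3: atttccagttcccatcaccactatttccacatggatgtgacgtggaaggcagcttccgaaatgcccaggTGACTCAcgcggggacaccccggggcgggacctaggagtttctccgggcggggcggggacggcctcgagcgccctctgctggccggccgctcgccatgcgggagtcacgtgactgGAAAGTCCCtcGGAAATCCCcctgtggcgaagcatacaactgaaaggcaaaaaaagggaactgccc
Tnfrsf12a: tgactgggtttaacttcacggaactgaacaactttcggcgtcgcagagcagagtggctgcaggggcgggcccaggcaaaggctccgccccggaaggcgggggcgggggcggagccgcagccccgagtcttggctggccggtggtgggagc
Tnfsf18: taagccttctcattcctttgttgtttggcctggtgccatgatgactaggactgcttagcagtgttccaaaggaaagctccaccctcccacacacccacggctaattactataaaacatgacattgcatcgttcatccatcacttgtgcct
In these bases Tnfaip3 held both searched forms of the kappaB motif, GGGANTTTC and GGGNNTTCC, on the strand opposite to the gene. The printed letters are therefore their reverse complements, with first printed bases 66 and 55 bases before the start (positions -66 and -55). The AP-1 motif TGANTCA lay at -181, with no overlap between the matches. The printed stretches of Tnfrsf12a and Tnfsf18, at 150 bases against 250 for Tnfaip3, held none of the 3 motifs. The full 250 bases before the start of these genes held none either. Both strands were searched. GGGNNTTCC was found in 9 of the 45 promoters (20.0%), against 5.92% of all 33469 promoters in the table, GGGANTTTC in 2 of 45 (4.44%) against 1.15%, and TGANTCA in 7 of 45 (15.6%) against 7.33%. The background was every promoter entry, whether or not its gene had a single one, so the sets were not picked alike. Cd70, Lta, Tnfrsf13b and Tnfsf14, among the 9 with GGGNNTTCC, were tested in no comparison. Tnfaip6 (-192), Tnfrsf1b (-186), Traf1 (-81) and Fas (-205) were among the genes with the AP-1 motif, Traf3 (-9) with GGGNNTTCC and Ltb (-24) with GGGANTTTC. Among the 7 genes with a promoter that were called higher in Model, 1 held GGGNNTTCC and 2 held TGANTCA, and among the 7 called lower 1 held GGGNNTTCC and 0 held TGANTCA. A match is a description of letters and not a site of binding.

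Stroke moved the superfamily in both directions, rt-PA on its own produced no call, and most of the calls with acupuncture were decreases in receptors. In Model vs Sham 36 of the genes were tested and 16 were called, 8 higher and 8 lower, which is 44.4% of those tested beside 21.5% of all genes (9.43% higher, the others lower). At an adjusted p under 0.05 and any fold, 20 of the 36 passed, beside 54.0% of all genes. Leaving out 1 library gave 14 to 19 calls, with 19 without Model replicate 3, where 3133 of all genes were called against 2765. In rt-PA vs Sham 41 were tested and 21 called, 15 higher and 6 lower, beside 22.6% of all genes (11.0% and 11.6%), and 14 of the 21 were called in Model vs Sham as well. These 2 comparisons share the Sham libraries, and how many of all genes were called in both was not counted. In the acupuncture comparison 14 of 41 genes were called, 2 higher and 12 lower, beside 15.3% of all genes (7.17% and 8.16%). Their median log2 fold change was -0.46 over the 41 and -0.00273 over all genes. This count was 7 without rt-PA+Acu replicate 2, 9 without rt-PA replicate 1 and 15 without rt-PA+Acu replicate 3, where 1445, 1493 and 2510 of all genes were called against 1993 with all libraries. Against Model, rt-PA+Acu had 8 called of 37, 2 higher and 6 lower, beside 14.5% of all genes (7.90% and 6.62%), and 12 at any fold, beside 34.3%.

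Between rt-PA and Model, 0 of 41 genes were called by edgeR's quasi-likelihood test, beside 0 of 12941 genes in all, and DESeq2 called 0 of the superfamily and 74 of the 12941. At an unadjusted p under 0.05 and a fold over 2, 3 passed, beside 1.86% of all genes. They were Traf1, with a log2 fold change of 2.14 (adjusted p = 0.374), Tnfsf18, with -1.51 (adjusted p = 0.385), and Tnfrsf22, with 1.17 (adjusted p = 0.487). A missed threshold does not show that rt-PA left the genes alike. Of the 41 genes, 34 had a positive log2 fold change, beside 6559 of the 12941. The medians were 0.176 and 0.00391. At the same unadjusted threshold, 6 of 9 monocyte and macrophage, 6 of 8 meningeal and fibroblast and 3 of 6 neutrophil markers passed. Of the 9 endothelial and 9 microglial markers, 0 did. For Tnfrsf12a the 95% interval of the log2 difference ran from -0.32 to 0.50, for Tnfaip3 from -0.55 to 0.28, and for Tnf, which varied more, from -0.99 to 2.92.

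Between rt-PA+Acu and Sham, 1 of 36 genes was called, beside 2.06% of all genes (0.916% higher and 1.14% lower), and it was Tnfsf9. The same gene alone passed at any fold, beside 5.10% of all genes. At an unadjusted p under 0.05 and a fold over 2, 3 of the 36 passed, beside 4.56% of all genes, namely Tnfsf9, Tnfrsf12a and Traf3ip3.

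**Figure D1:**
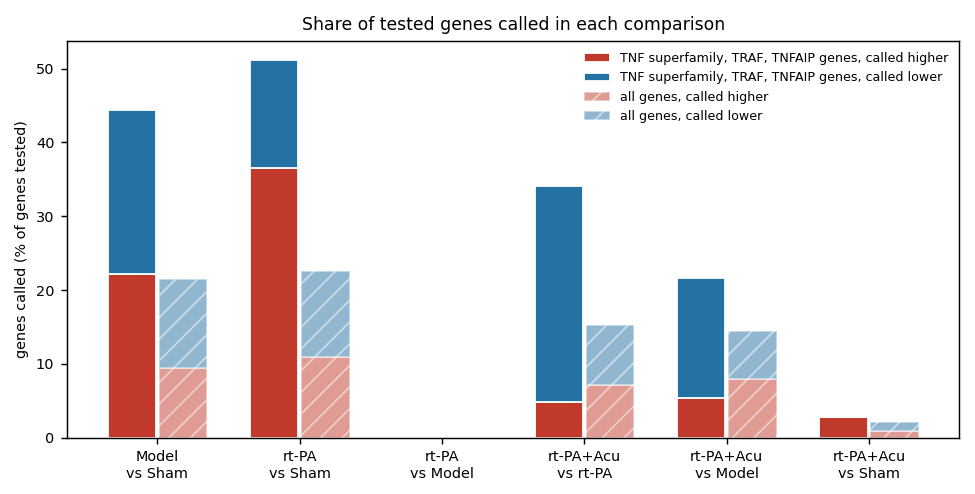
Share of tested genes called higher (red) and lower (blue) in each of the 6 comparisons, in percent of the genes tested, for the TNF superfamily, TRAF and TNFAIP genes (solid bars) and for all genes (hatched bars). For rt-PA+Acu vs rt-PA the superfamily bar is mostly blue, with 12 of its 14 called genes lower, and in rt-PA vs Model there is no bar, because no gene was called.

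**Figure D2:**
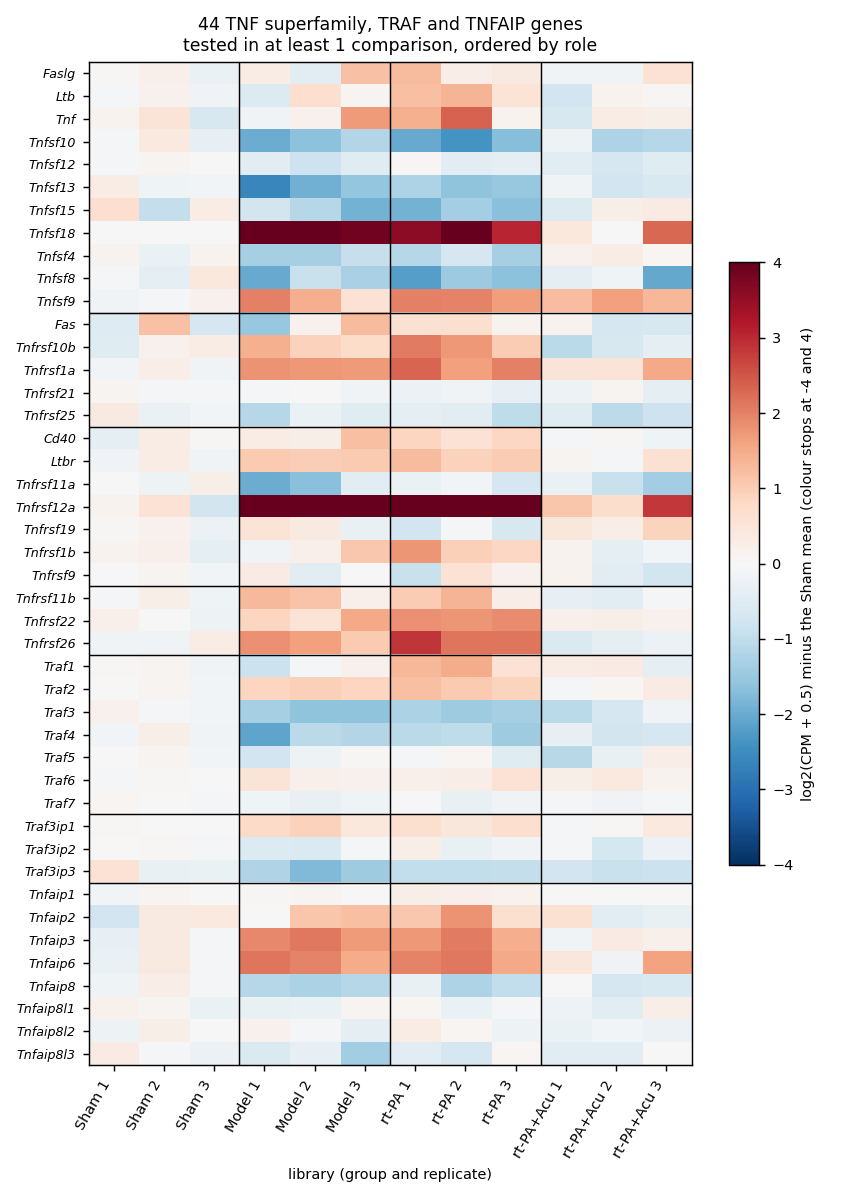
Level of the 44 genes tested in at least 1 comparison, as log2 of CPM plus 0.5 minus the mean of the Sham libraries, with a column for each of the 12 libraries and genes grouped by role. Colour stops at -4 and 4. Tnfsf18 and Tnfrsf12a are dark red in every Model and rt-PA library, and among the rt-PA+Acu libraries replicate 3 keeps the most colour at both genes.

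There were 6 genes called higher in Model than in Sham and lower in the acupuncture comparison, comparisons that share no library. They were the ligand Tnfsf18, the receptors Tnfrsf12a, Tnfrsf1a, Tnfrsf10b and Tnfrsf26, and Tnfaip3. No gene of the superfamily was called lower in the first and higher in the second. How many of all genes followed either pattern was not counted, so these numbers have no background share beside them.

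Among the ligands, Tnfsf18 rose and Tnfsf13, Tnfsf10 and Tnfsf8 fell after stroke. Tnfsf18 encodes the ligand of GITR, a costimulatory receptor of T cells. Its level was 0 CPM in each Sham library, 22.0, 20.9 and 6.77 in Model, 5.41, 8.41 and 3.61 with rt-PA, and 0.169, 0 and 1.94 with rt-PA+Acu. All Model and rt-PA libraries lay above the Sham and rt-PA+Acu libraries. Against a floor of 3 counts per library, Tnfsf18 was at least 67.8-fold higher in Model than in Sham and at least 23.8-fold higher in rt-PA. By edgeR's test it was called in both comparisons (adjusted p = 0.000388 and 0.000437, in that order). It fell by 2.96 on the log2 scale in the acupuncture comparison (SE 0.943, adjusted p = 0.0442) and by 4.47 in rt-PA+Acu vs Model (SE 0.921, adjusted p = 0.0093). The call against rt-PA was lost when any library but rt-PA+Acu replicate 3 was left out, with adjusted p from 0.0708 without rt-PA replicate 3 to 0.111 without rt-PA+Acu replicate 1. That replicate 3 held 26 of the group's 28 counts, and without it the fitted differences were -5.93 against rt-PA and -7.43 against Model, sizes that rest on 2 counts and depend on the prior count. Its receptor gene Tnfrsf18 was not tested and had at most 4 counts in any library.

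Tnfsf9 encodes the ligand of 4-1BB, another costimulatory receptor of lymphocytes. It was at 0.242, 0.306 and 0.436 CPM in Sham, 2.83, 1.78 and 0.743 in Model, 2.85, 2.73 and 2.14 with rt-PA, and 1.43, 2.09 and 1.57 with rt-PA+Acu. Every stroke library, with or without acupuncture, lay above every Sham library. The gene was not tested in Model vs Sham, where 3 of the 6 libraries held at most 5 counts. Its log2 fold change against Sham was 2.93 in rt-PA (SE 0.387, adjusted p = 0.000514) and 2.34 in rt-PA+Acu (SE 0.445, adjusted p = 0.027). In the acupuncture comparison it was -0.60 (95% interval -1.33 to 0.14, adjusted p = 0.177), so the 2 groups with rt-PA were not told apart. That call against Sham was lost without any of the Sham libraries or without rt-PA+Acu replicate 2, with adjusted p from 0.0807 to 0.144. The receptor gene Tnfrsf9 was at 1.60 ± 0.681 CPM (SD, n = 3) in rt-PA+Acu and between 2.10 and 2.24 on average in the other groups, and was called in no comparison.

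Tnfsf4, the gene of OX40 ligand, showed the opposite pattern to its neighbour Tnfsf18. RefSeq places no protein-coding gene between them. Tnfsf4 held 11, 7 and 10 counts in Sham, 0, 0 and 2 in Model, 1, 4 and 0 with rt-PA, and 11, 12 and 11 with rt-PA+Acu. Sham and rt-PA+Acu libraries overlapped and lay above all others. The gene was too low to be tested in Model vs Sham, where the ratio of pooled counts, Sham over Model, was 14 (95% counting interval 3.54 to 121). It was called higher in the acupuncture comparison, by 2.87 on the log2 scale (SE 0.78, adjusted p = 0.0261). By edgeR's test it was also called higher in rt-PA+Acu than in Model (adjusted p = 0.0137), where the ratio of pooled counts was 17.1 (4.39 to 147). The first call was lost without rt-PA replicate 1 or 3 or rt-PA+Acu replicate 1 or 2 (adjusted p 0.0632 to 0.0953), and the second without Model replicate 2 (0.0537) or rt-PA+Acu replicate 2 (0.0518). Tnfrsf4, the OX40 gene, was below the filter, with group means of 0.189 to 0.397 CPM.

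Tnfsf13 encodes APRIL, a ligand known for B cell and plasma cell survival. Its level was 33.8, 24.0 and 25.0 CPM in Sham, 4.05, 6.77 and 9.09 in Model, 11.4, 8.55 and 9.22 with rt-PA, and 24.9, 15.7 and 17.6 with rt-PA+Acu. Model and rt-PA libraries were all lower than the Sham and rt-PA+Acu libraries. It fell by 2.05 on the log2 scale in Model vs Sham (SE 0.283, adjusted p = 0.000532) and by 1.52 in rt-PA vs Sham (SE 0.185, adjusted p = 0.000347), and it was called higher in rt-PA+Acu than in Model, by 1.55 (SE 0.315, adjusted p = 0.00887). Against rt-PA the difference was 0.999 (SE 0.221, adjusted p = 0.013), just short of the fold threshold. The APRIL receptor genes Tnfrsf13b and Tnfrsf17 had at most 4 counts in any library. Tnfsf12, the gene of TWEAK, lies next to Tnfsf13 and can share transcripts with it, so reads may be split between them. It was at 12.4 ± 0.836 CPM (SD, n = 3) in Sham and 8.18 ± 1.22 in Model, a log2 difference of -0.59 (SE 0.179, adjusted p = 0.0226), and was called in no comparison.

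Tnfsf10, the gene of the apoptosis-inducing ligand TRAIL, held 25, 38 and 18 counts in Sham, 2, 4 and 8 in Model, 2, 0 and 4 with rt-PA, and 21, 7 and 9 with rt-PA+Acu. Sham lay above Model and rt-PA without overlap. It fell by 2.48 on the log2 scale in Model vs Sham (SE 0.541, adjusted p = 0.0052) and fell by 3.85 in rt-PA vs Sham (SE 0.678, adjusted p = 0.00202). Tnfsf8, the gene of CD30 ligand, was at 3.22, 2.52 and 4.71 CPM in Sham, 0.458, 1.61 and 1.07 in Model, 0.347, 0.934 and 0.738 with rt-PA, and 2.44, 2.97 and 0.448 with rt-PA+Acu. It fell by 1.73 in Model vs Sham (SE 0.474, adjusted p = 0.0146) and by 2.38 in rt-PA vs Sham (SE 0.436, adjusted p = 0.00247), and the rt-PA+Acu libraries were spread over both ranges. The Model vs Sham call of Tnfsf8 was lost without Sham replicate 3 (adjusted p = 0.0611). Tnfrsf8, its receptor gene, was not tested, with group means of 0.130 to 0.387 CPM.

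The other ligands were low. Tnf itself was at 0.644, 0.994 and 0.175 CPM in Sham, 0.458, 0.677 and 2.89 in Model, 2.29, 4.89 and 0.664 with rt-PA, and 0.169, 0.785 and 0.746 with rt-PA+Acu. Its groups overlapped in all 6 comparisons, and it was tested in 3 and called in none. The log2 difference was 2.05 in rt-PA vs Sham (SE 0.784, adjusted p = 0.0557) and 0.97 in rt-PA vs Model (SE 0.842, adjusted p = 0.76). In the acupuncture comparison it was -2.18 (SE 0.796, adjusted p = 0.0685). Ltb, the gene of lymphotoxin beta, held 4, 6 and 3 counts in Sham, 1, 10 and 5 in Model, 21, 23 and 10 with rt-PA, and 0, 5 and 5 with rt-PA+Acu. It was called higher in rt-PA than in Sham, by 1.83 (SE 0.502, adjusted p = 0.0158), and that call was lost without Sham replicate 1 (0.0519) or 3 (0.0584). Faslg, the gene of Fas ligand, had group means of 0.534 to 1.16 CPM and was not called. Tnfsf15, a ligand of the death receptor gene Tnfrsf25, held 30, 6 and 20 counts in Sham, 8, 4 and 0 in Model, 0, 3 and 1 with rt-PA, and 9, 19 and 24 with rt-PA+Acu. The rt-PA libraries lay below all Sham and all rt-PA+Acu libraries. Its ratio of pooled counts was 15.9 for Sham over rt-PA (5.86 to 60.3) and 14.8 for rt-PA+Acu over rt-PA (5.46 to 56.5). Tnfsf11, the gene of RANKL, had 7 counts in rt-PA replicate 1 and at most 2 in the other libraries, with 0 in all Sham and rt-PA+Acu libraries. Tnfsf14 had at most 4 counts and Cd70 at most 4.

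**Figure D3:**
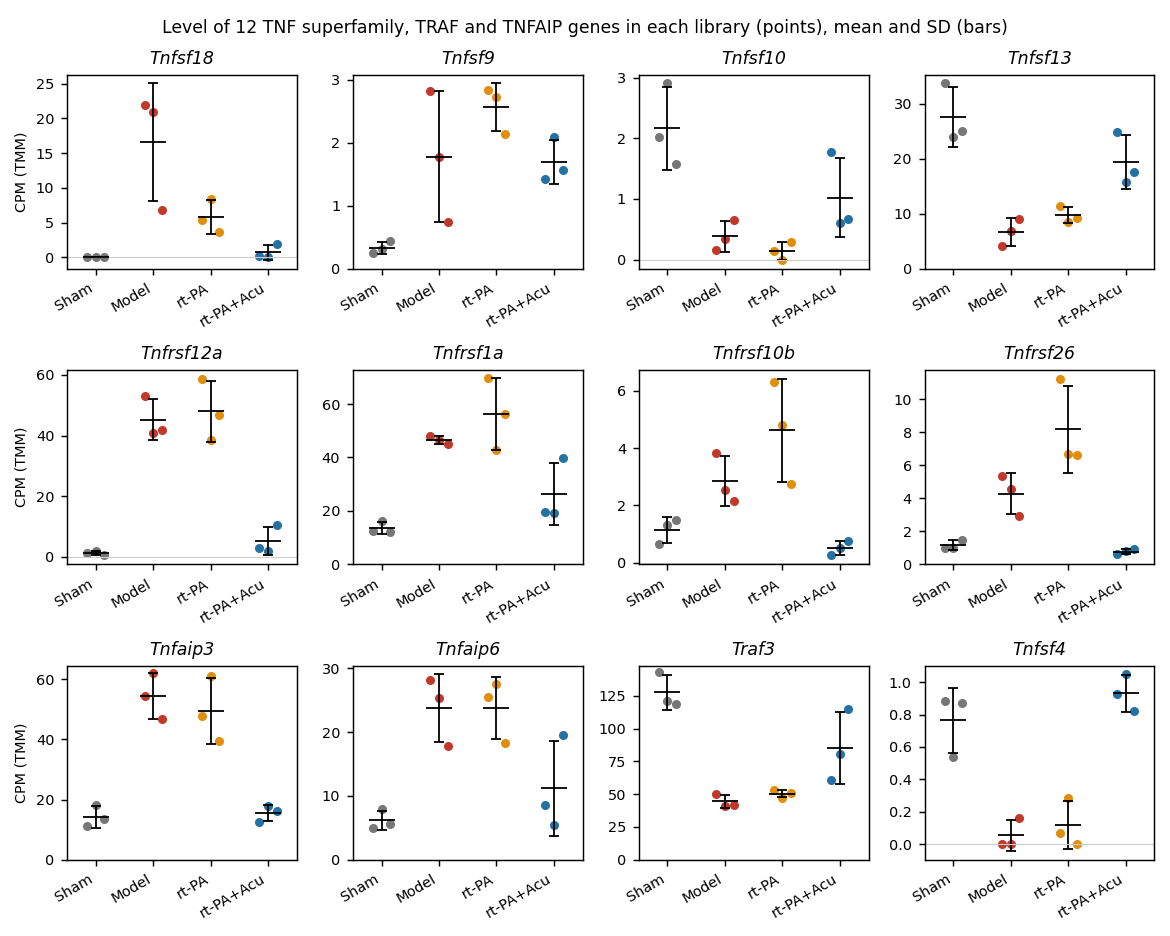
Level in CPM of 12 genes in each library, with a panel per gene, points for the 3 libraries of a group, and bars for the mean and SD. The Model and rt-PA points of Tnfsf18, Tnfrsf12a and Tnfaip3 lie above all Sham and rt-PA+Acu points, those of Tnfsf13, Traf3 and Tnfsf4 lie below them, and Tnfsf9 stays above Sham in all stroke groups.

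Of the 23 receptor genes, 14 were tested in Model vs Sham, with 5 called higher and 1 lower, which is 42.9% beside 21.5% of all genes. In the acupuncture comparison 15 were tested, with 1 called higher and 8 lower, which is 60% beside 15.3% of all genes (7.17% higher and 8.16% lower). Of those 15, 13 had a negative log2 fold change, with a median of -1.10 beside -0.00273 over all genes. Among the genes called lower, Tnfrsf22, Tnfrsf10b and Cd40 held at most 10 counts in any rt-PA+Acu library. They passed the filter through the rt-PA libraries, where they were higher. The values of Tnfrsf22 and Tnfrsf26 may not be separate either, as given below. These shares and the median therefore describe these libraries only.

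Tnfrsf12a encodes Fn14, the receptor of TWEAK, which is low in healthy brain and induced by tissue injury. It was at 1.21, 1.83 and 0.436 CPM in Sham, 53.0, 40.7 and 41.8 in Model, 58.7, 38.4 and 46.7 with rt-PA, and 2.87, 2.01 and 10.5 with rt-PA+Acu. Model and rt-PA overlapped and lay above both other groups, and each rt-PA+Acu library lay above each Sham library. It was higher, on the log2 scale, by 5.25 in Model vs Sham (SE 0.335, adjusted p = 1.83e-05), a 38.1-fold difference, and 5.31 in rt-PA vs Sham (SE 0.354, adjusted p = 2.67e-05). It fell by 3.20 in the acupuncture comparison (SE 0.553, adjusted p = 0.00585) and by 3.11 in rt-PA+Acu vs Model (SE 0.535, adjusted p = 0.00498). These 4 calls held without any single library. Without rt-PA+Acu replicate 3, the library that stood apart, the fall against rt-PA was 4.28. In rt-PA+Acu vs Sham the log2 difference was 2.13 (95% interval 0.47 to 3.79, adjusted p = 0.129 with edgeR), and DESeq2 called it.

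Among receptors with a death domain, Tnfrsf1a and Tnfrsf10b rose. Tnfrsf1a encodes the main TNF receptor of most cell types. It was at 12.4, 16.1 and 12.2 CPM in Sham, 47.9, 46.4 and 44.9 in Model, 69.8, 42.8 and 56.4 with rt-PA, and 19.6, 19.3 and 39.6 with rt-PA+Acu. Those of the rt-PA+Acu group lay between Sham and the other stroke groups without overlap. It rose, on the log2 scale, by 1.78 in Model vs Sham (SE 0.136, adjusted p = 3.79e-05) and 2.03 in rt-PA vs Sham (SE 0.201, adjusted p = 0.000132), and it fell by 1.10 in the acupuncture comparison (SE 0.315, adjusted p = 0.031). This last call was lost without rt-PA replicate 1 or 3 or rt-PA+Acu replicate 1 or 2, with adjusted p from 0.0775 to 0.103.

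Tnfrsf10b, the TRAIL receptor gene, was at 0.644, 1.30 and 1.48 CPM in Sham, 3.82, 2.54 and 2.15 in Model, 6.31, 4.81 and 2.73 with rt-PA, and 0.253, 0.524 and 0.746 with rt-PA+Acu. It moved against its ligand gene Tnfsf10, which fell where the receptor rose. On the log2 scale it changed by 1.32 in Model vs Sham (SE 0.421, adjusted p = 0.0278), 1.99 in rt-PA vs Sham (SE 0.43, adjusted p = 0.00536) and -3.14 in the acupuncture comparison (SE 0.498, adjusted p = 0.00447). The Model vs Sham call was lost without Sham replicate 1 or 2 or Model replicate 1 or 2 (adjusted p 0.0534 to 0.097), and the call against rt-PA held without any single library. Fas varied within groups, at 1.13, 4.66 and 0.96 CPM in Sham and 0.305, 2.12 and 5.04 in Model, and was called in no comparison. Its difference in the acupuncture comparison was -1.05 (SE 0.407, adjusted p = 0.0807). Tnfrsf21, the gene of death receptor 6, stayed between 60.1 and 84.3 CPM in all libraries, and Tnfrsf25 was at 4.20 ± 1.12 CPM (SD, n = 3) in Sham and 2.57 ± 0.874 in Model. Neither was called.

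Besides Tnfrsf12a, the other signalling receptors called in at least 1 comparison were Tnfrsf1b, Ltbr, Cd40, Tnfrsf19 and Tnfrsf11a. Tnfrsf1b, the gene of the second TNF receptor, which leukocytes, microglia and endothelial cells use, was at 5.56, 5.81 and 3.75 CPM in Sham, 4.50, 5.84 and 11.1 in Model, 18.0, 9.99 and 9.15 with rt-PA, and 5.56, 3.67 and 4.55 with rt-PA+Acu. Unlike Tnfrsf1a it was not called in Model vs Sham (0.50, 95% interval -0.32 to 1.32, adjusted p = 0.265), where the groups overlapped. It was higher in rt-PA than in Sham by 1.27 (SE 0.309, adjusted p = 0.00924) and fell by 1.43 in the acupuncture comparison (SE 0.316, adjusted p = 0.013). Leaving out rt-PA replicate 1 took the first of these to 0.91, and leaving out rt-PA+Acu replicate 2 took the adjusted p of the second to 0.0524.

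Ltbr, the lymphotoxin beta receptor gene, was at 13.0, 17.7 and 12.8 CPM in Sham, 30.4, 29.1 and 30.4 in Model, 35.5, 27.8 and 29.3 with rt-PA, and 15.4, 13.8 and 22.1 with rt-PA+Acu. It rose by 1.05 in Model vs Sham (SE 0.154, adjusted p = 0.000701) and 1.07 in rt-PA vs Sham (SE 0.169, adjusted p = 0.00121). Both sat near the fold threshold, at 0.97 in Model vs Sham without Sham replicate 1 or 3, and at 0.97 to 0.99 in rt-PA vs Sham without Sham replicate 1 or 3 or rt-PA replicate 1. In the acupuncture comparison the difference was -0.85 (adjusted p = 0.0183), under the fold threshold. Cd40, a costimulatory receptor of antigen-presenting cells, held 23, 17 and 21 counts with rt-PA and 7, 8 and 7 with rt-PA+Acu, and 5 to 26 in the other libraries. Its fall of 1.26 (SE 0.38, adjusted p = 0.0368) was lost without any 1 of the 6 libraries (adjusted p 0.0587 to 0.12) and with DESeq2 (0.0813).

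Tnfrsf19, known as TROY and found on glia and neural progenitors, was the receptor gene called higher in the acupuncture comparison. It was at 10.8, 17.7 and 11.8 CPM with rt-PA, 25.9, 22.5 and 35.3 with rt-PA+Acu and 15.1 to 27.6 in the Sham and Model libraries. The difference was 1.06 (SE 0.248, adjusted p = 0.0157), and fell to 0.92 without rt-PA replicate 1, 0.97 without rt-PA replicate 3, 0.85 without rt-PA+Acu replicate 3 and 0.98 with library size alone in place of TMM. Tnfrsf11a, the RANK gene, was at 19.6, 17.1 and 23.4 CPM in Sham, 4.66, 5.84 and 14.6 in Model, 16.3, 18.5 and 12.2 with rt-PA, and 16.5, 10.4 and 7.31 with rt-PA+Acu. It fell by 1.25 in Model vs Sham (SE 0.388, adjusted p = 0.0246). That call was lost without Sham replicate 1 or 3 or Model replicate 1 or 2, with adjusted p from 0.0538 to 0.0857. Tnfrsf14 had 16 counts in rt-PA replicate 1 and at most 5 in the other libraries.

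All 3 decoy or decoy-like receptor genes were called lower in the acupuncture comparison. Tnfrsf26 and Tnfrsf22 lie next to each other and encode rodent receptors without a death domain, and reads could be shared between such related neighbours, so their separate values are uncertain. Tnfrsf26 was at 0.967, 0.994 and 1.48 CPM in Sham, 5.34, 4.57 and 2.89 in Model, 11.2, 6.68 and 6.64 with rt-PA, and 0.590, 0.785 and 0.895 with rt-PA+Acu. The groups were ordered rt-PA, Model, Sham and rt-PA+Acu without overlap. It rose by 1.90 in Model vs Sham (SE 0.366, adjusted p = 0.0028) and 2.81 in rt-PA vs Sham (SE 0.328, adjusted p = 0.000288), and fell by 3.41 in the acupuncture comparison (SE 0.353, adjusted p = 0.00133). The last 2 groups of that order, Sham and rt-PA+Acu, differed by -0.59 (95% interval -1.54 to 0.37, adjusted p = 0.434), and rt-PA and Model by 0.94 (adjusted p = 0.419), so neither pair was told apart by the test.

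Tnfrsf22 held 2, 1 and 0 counts in Sham, 7, 4 and 14 in Model, 22, 20 and 22 with rt-PA, and 2, 2 and 2 with rt-PA+Acu. Its ratio of pooled counts was 18.8 for rt-PA over Sham (6.16 to 93.7) and 9.35 for rt-PA over rt-PA+Acu (4.07 to 26.4). By edgeR's test it was called in both comparisons (adjusted p = 0.00112 and 0.00318, in that order). It was too low to be tested in Model vs Sham, where the ratio was 8.32 (2.54 to 43). The calls of Tnfrsf22 and Tnfrsf26 held without any single library. Tnfrsf11b encodes osteoprotegerin, the soluble decoy for RANKL. It was at 35.8, 44.5 and 33.1 CPM in Sham, 93.6, 82.8 and 43.2 in Model, 76.0, 97.8 and 45.0 with rt-PA, and 29.5, 27.0 and 35.7 with rt-PA+Acu. Replicate 3 was the lowest library of Model and of rt-PA. Against Sham the difference was 0.96 in Model (adjusted p = 0.0149) and 0.93 in rt-PA (adjusted p = 0.0174), both under the fold threshold. It fell by 1.24 in the acupuncture comparison (SE 0.27, adjusted p = 0.0121) and by 1.25 in rt-PA+Acu vs Model (SE 0.275, adjusted p = 0.0117). The first was -0.98 without rt-PA replicate 2, and without rt-PA+Acu replicate 2 the adjusted p was 0.0511 against rt-PA and 0.0503 against Model.

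**Figure D4:**
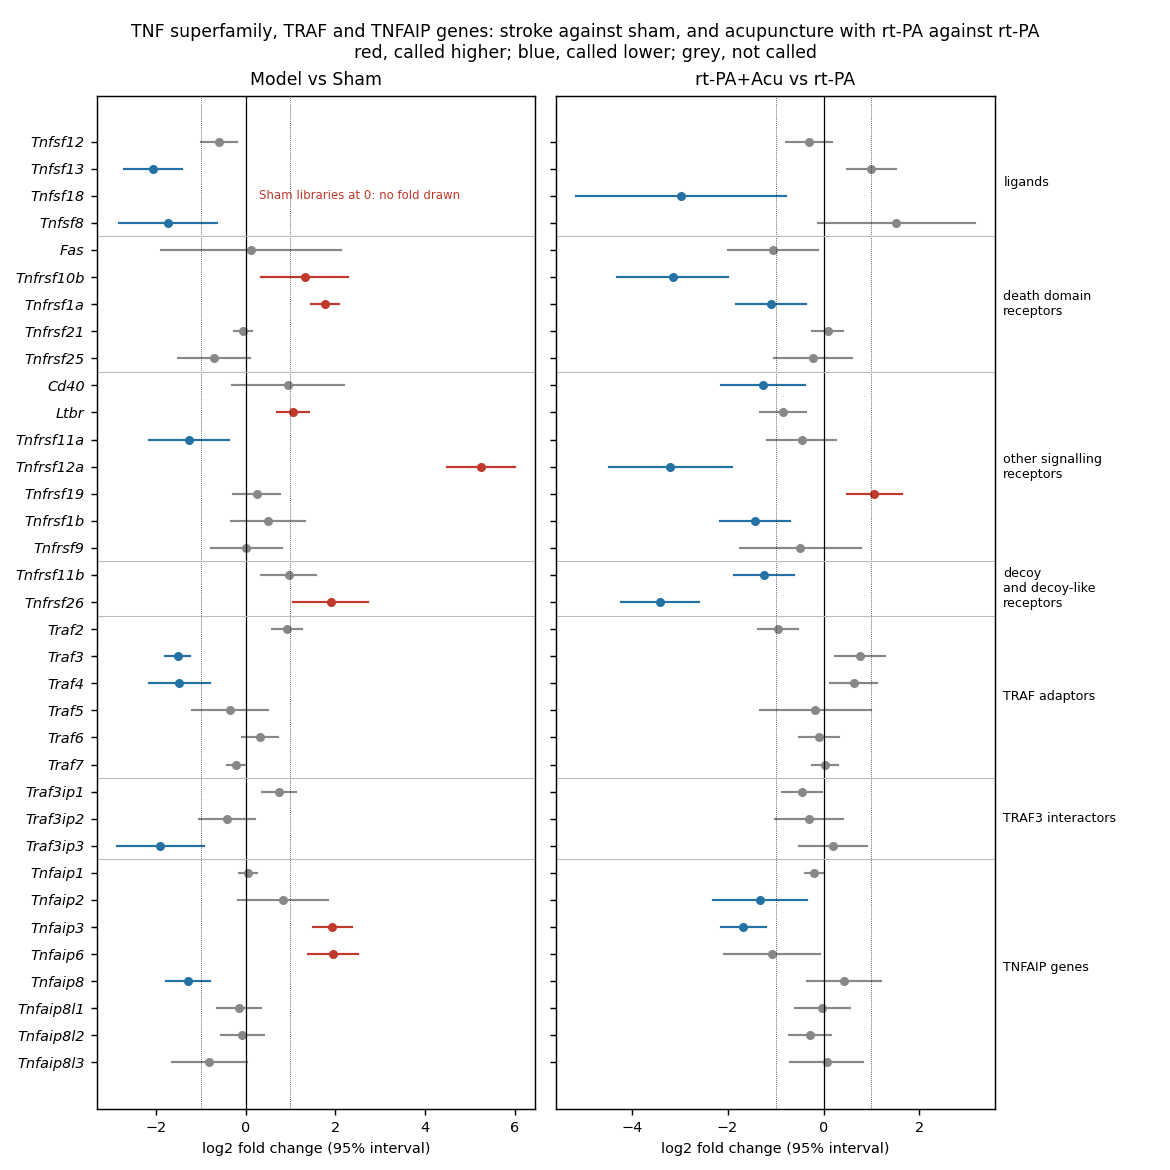
Log2 fold change with its 95% interval for the 35 genes tested in both Model vs Sham (left) and rt-PA+Acu vs rt-PA (right), by role, with called genes in red (higher) or blue (lower) and the others in grey, and dotted lines at -1 and 1. No point is drawn for Tnfsf18 on the left, because it was at 0 in all Sham libraries. Tnfrsf12a, Tnfrsf26, Tnfrsf10b, Tnfrsf1a and Tnfaip3 lie right of 1 on the left panel and left of -1 on the right panel, while Traf3 and Traf4 are called on the left only.

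TRAF adaptors split after stroke. Traf3 and Traf4 fell, and Traf2 lay higher without passing the fold threshold in Model. Traf3, which restrains the alternative NF-kappaB pathway and serves interferon induction, was at 143, 121 and 119 CPM in Sham, 50.4, 41.2 and 41.7 in Model, 53.1, 47.4 and 50.8 with rt-PA, and 60.5, 80.4 and 115 with rt-PA+Acu. Those of the rt-PA+Acu group covered the range between the Sham and the other stroke libraries without overlapping either. It fell by 1.51 in Model vs Sham (SE 0.121, adjusted p = 4.35e-05) and by 1.36 in rt-PA vs Sham (SE 0.101, adjusted p = 3.84e-05). In the acupuncture comparison the difference was 0.76 (SE 0.221, adjusted p = 0.0325), past the p threshold but not the fold threshold. Traf4 was at 14.3, 18.3 and 13.8 CPM in Sham, 3.13, 7.03 and 6.53 in Model, 6.94, 7.33 and 5.46 with rt-PA, and 12.1, 9.08 and 9.40 with rt-PA+Acu. It fell by 1.47 in Model vs Sham (SE 0.294, adjusted p = 0.00335) and by 1.25 in rt-PA vs Sham (SE 0.191, adjusted p = 0.00104).

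Traf2, the adaptor that links TNF receptors to the cIAP ubiquitin ligases, was at 8.78, 9.40 and 7.95 CPM in Sham, 16.0, 17.1 and 16.4 in Model, 20.6, 18.7 and 16.5 with rt-PA, and 8.34, 9.25 and 11.1 with rt-PA+Acu. It was called in rt-PA vs Sham, with 1.07 (SE 0.152, adjusted p = 0.00072), and lay under the fold threshold in Model vs Sham (0.93, adjusted p = 0.00114) and in the acupuncture comparison (-0.95, adjusted p = 0.00741). Traf1, itself a known NF-kappaB target, held 7, 8 and 5 counts in Sham, 1, 6 and 8 in Model, 30, 33 and 14 with rt-PA, and 9, 9 and 4 with rt-PA+Acu. The rt-PA libraries lay above those of all other groups, but by edgeR's test the difference from Model was not called (2.14, adjusted p = 0.374). Traf1 was called higher in rt-PA than in Sham, by 1.72 (SE 0.449, adjusted p = 0.0124), and fell by 1.58 in the acupuncture comparison (SE 0.518, adjusted p = 0.0488). The second call was lost without any library but rt-PA replicate 3 (adjusted p 0.0912 to 0.136). Traf5, Traf6 and Traf7 had group means of 1.59 to 2.05, 8.76 to 11.4 and 43.5 to 50.3 CPM and were called in no comparison.

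Of the genes for proteins that bind TRAF3, Traf3ip3, a gene of lymphocytes and myeloid cells, was at 5.40, 2.75 and 2.79 CPM in Sham, 1.22, 0.677 and 0.991 in Model, 1.53, 1.51 and 1.55 with rt-PA, and 1.85, 1.66 and 1.72 with rt-PA+Acu. All stroke libraries lay below all Sham libraries. It fell by 1.90 in Model vs Sham (SE 0.42, adjusted p = 0.00551) and by 1.27 in rt-PA vs Sham (SE 0.353, adjusted p = 0.0164). Without Sham replicate 1, the highest library, the second was -0.88 (adjusted p = 0.0599). In rt-PA+Acu vs Sham it was -1.06 (95% interval -1.89 to -0.24, adjusted p = 0.128). Traf3ip1 was 12.6 ± 0.298 CPM (SD, n = 3) in Sham and 21.0 ± 3.62 in Model, a difference of 0.74 (adjusted p = 0.00541) under the fold threshold, and Traf3ip2 was not called.

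Tnfaip3 and Tnfaip6 rose after stroke and Tnfaip8 fell. Tnfaip3, whose promoter is printed above, was at 11.1, 18.2 and 13.4 CPM in Sham, 54.3, 62.0 and 46.9 in Model, 47.7, 61.2 and 39.5 with rt-PA, and 12.6, 17.7 and 16.3 with rt-PA+Acu. Sham and rt-PA+Acu overlapped, as did Model and rt-PA, with a gap between these pairs. It rose by 1.94 in Model vs Sham (SE 0.191, adjusted p = 0.00011) and 1.77 in rt-PA vs Sham (SE 0.222, adjusted p = 0.000395), and fell by 1.67 in the acupuncture comparison (SE 0.203, adjusted p = 0.00195) and by 1.81 in rt-PA+Acu vs Model (SE 0.175, adjusted p = 0.000847). All 4 calls held without any single library. In rt-PA+Acu vs Sham the interval of its log2 difference was -0.38 to 0.62.

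Tnfaip6 encodes TSG-6, a hyaluronan-binding protein of inflamed tissue. It was at 4.91, 7.87 and 5.67 CPM in Sham, 28.2, 25.4 and 17.8 in Model, 25.5, 27.6 and 18.3 with rt-PA, and 8.51, 5.50 and 19.6 with rt-PA+Acu. In rt-PA+Acu replicate 3 it reached the range of the other stroke groups. It rose by 1.95 in Model vs Sham (SE 0.244, adjusted p = 0.000329) and 1.93 in rt-PA vs Sham (SE 0.233, adjusted p = 0.000342), and in the acupuncture comparison the difference was -1.08 (SE 0.43, adjusted p = 0.0887). Tnfaip8, a regulator of cell survival, was at 8.38, 11.3 and 8.82 CPM in Sham and 4.05, 3.64 and 3.96 in Model, a fall of 1.28 (SE 0.21, adjusted p = 0.00125), and at 5.24 ± 1.99 (SD, n = 3) with rt-PA and 7.03 ± 2.02 with rt-PA+Acu. Tnfaip2, a gene of endothelial and myeloid cells, was at 2.01, 4.97 and 5.15 CPM in Sham, 3.74, 8.63 and 9.33 in Model, 8.60, 14.3 and 6.20 with rt-PA, and 5.98, 2.62 and 2.98 with rt-PA+Acu. It rose by 1.24 in rt-PA vs Sham (SE 0.418, adjusted p = 0.0356) and fell by 1.33 in the acupuncture comparison (SE 0.418, adjusted p = 0.0431). The rise was lost without any library but rt-PA replicate 3 (adjusted p 0.0503 to 0.098), and the fall without rt-PA replicate 1 or 2 or rt-PA+Acu replicate 2 or 3 (0.0815 to 0.134). Tnfaip1, Tnfaip8l1, Tnfaip8l2 and Tnfaip8l3 were called in no comparison.

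The downstream genes of TNF signalling were read from a separate list. Of its 45 adaptors, kinases, caspases, NF-kappaB subunits and regulators, 43 were in the table and 42 were tested. In Model vs Sham 9 were called higher and 1 lower, which is 23.8% of those tested and near the 21.5% of all genes. In the acupuncture comparison 1 was called higher and 12 lower, which is 31% of those tested beside 15.3% of all genes (7.17% higher and 8.16% lower). The median log2 fold change there was -0.55, and -0.00273 over all genes. For rt-PA vs Model and for rt-PA+Acu vs Sham 0 were called, with 1 and 0 at an unadjusted p under 0.05 and a fold over 2. Named are the 6 with the largest change in either of these comparisons, which were the 6 largest in Model vs Sham. Birc3, the gene of the ubiquitin ligase cIAP2, changed by 2.50 in Model vs Sham (SE 0.465, adjusted p = 0.0024) and by -3.47 in the acupuncture comparison (SE 0.606, adjusted p = 0.00603). Tnip2, which encodes a binding partner of A20, changed by 2.60 and -2.42 (adjusted p = 2.74e-05 and 0.0036). Ripk3, the kinase of necroptosis, changed by 2.43 and -2.39 (0.000219 and 0.0163), and Cflar, the gene of the caspase 8 inhibitor c-FLIP, by 2.13 and -1.59 (0.00054 and 0.00277). Jun, a subunit of AP-1, changed by 2.10 and -1.77 (3.05e-05 and 0.00401), and Relb, the NF-kappaB subunit of the alternative pathway, by 1.76 and -1.91 (0.00387 and 0.0245). The gene called in the other direction, singled out after its values were seen, was Cyld, a deubiquitinase that limits NF-kappaB signalling, with -1.30 and 1.22 (4.85e-05 and 0.00389).

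Members of the superfamily outside the symbols used here were read separately. Of 8 such genes, 7 were in the table, and 2 of 5 tested were called higher and 1 lower in Model vs Sham, beside 21.5% of all genes called. These 3 are named after their values were seen. Ngfr, the low-affinity neurotrophin receptor with a death domain, had a level of 0.732 ± 0.140 CPM (SD, n = 3) for Sham, 5.57 ± 2.77 for Model, 8.16 ± 4.06 with rt-PA and 0.478 ± 0.249 with rt-PA+Acu. It changed by 2.91 in Model vs Sham (SE 0.444, adjusted p = 0.000868) and by -4.04 in the acupuncture comparison (SE 0.519, adjusted p = 0.00227). Relt, a receptor gene of lymphoid tissue, changed by 1.77 and -1.09 (adjusted p = 0.00439 and 0.0216), and Eda, the gene of the ligand ectodysplasin, by -1.91 and 1.27 (0.000478 and 0.0114).

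Cell type markers changed beside these genes. In Model vs Sham, where 21.5% of all genes were called, 4 of the 8 monocyte and macrophage markers tested were called higher. Of 10 astrocyte markers 7 were called lower and 1 higher, of 10 oligodendrocyte lineage markers 7 lower, and of 9 microglial markers 4 lower. The oligodendrocyte sum was 12310 to 18320 CPM in Sham, 1790 to 8672 in Model, 2907 to 11630 with rt-PA and 3397 to 21470 with rt-PA+Acu, so it varied widely within groups. For acupuncture added to rt-PA, where 15.3% of all genes were called, 5 of 10 astrocyte markers were called higher and 0 of 10 oligodendrocyte markers were called, with none at an unadjusted p under 0.05 and a fold over 2. There 8 of 9 monocyte and macrophage markers were called lower, as were 6 of 9 endothelial, 4 of 6 neutrophil and 0 of 9 microglial markers. The microglial markers P2ry12 and Sall1 were called higher there, by 3.06 and 1.04 on the log2 scale. All 3 libraries of a group lay on 1 side of the other group in 23 of the 36 genes tested in Model vs Sham, beside 63.6% of all genes, and in 25 of the 41 tested in the acupuncture comparison, beside 51.1%. In rt-PA vs Sham this held for 29 of 41, beside 64.1%.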

How the data were processed

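RNA was measured in the cortex of 12 rats, 3 in each of 4 groups, which were taken from the deposited labels. According to the paper's methods, the authors aligned read pairs, 150 bases from each end, with STAR (genome build mRatBN7.2) and counted uniquely mapped read pairs on Ensembl genes with Salmon 1.9.0. The submitters' processing notes name STAR 2.7.10a, Salmon 1.9.0 and featureCounts 2.0.1 without a role. The labels describe a stranded poly(A) preparation with molecular identifiers in the adapters, and whether these were used is not given in the sources used here. Deposited by the authors were unnormalized counts, whole numbers for each gene symbol in each library, with no replicates pooled. Reads are not independent molecules, so intervals and floors from counts cover counting error only.

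Tests were run with edgeR 4.0.16 under R 4.3.3 (TMM, filterByExpr, glmQLFit and glmQLFTest) on the 6 libraries of each pair of groups, with Benjamini-Hochberg adjustment over all genes tested. Genes were called where the adjusted p was under 0.05 and the fold was over 2 either way. The standard error is the log2 fold change over the root of F. The script was tested on simulated counts. With 3 libraries against 3, an exact permutation test of a single gene cannot give a p under 0.1, so the moderated test across all genes was used. Labels give 1 rat per library. Where a group was at 0, the fold was computed against 3 counts per library, and where it held few counts the ratio of pooled counts is given with an exact 95% interval. Promoters come from RefSeq (GRCr8), which is not the build of the counts. Figures used matplotlib 3.10.9 on Python 3.11.15.

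Genes named with values were those called in at least 1 comparison, the TNF, Fas, TWEAK, CD40 and RANK ligand and receptor pairs, all Traf genes, the partners of called ligands and receptors, and at most 6 genes of the signalling list. Cyld, a seventh gene of that list, Ngfr, Relt, Eda, P2ry12, Sall1, Slc17a7 and Gad1 were named after their values were seen. The genes of the superfamily, the signalling list and the marker lists were chosen with earlier results of these data known. Alternatives were DESeq2 1.42.0, RLE size factors, library size alone, other filters, 1 fit over 12 libraries, an unadjusted p, the replicate number as a block, no fold threshold and leaving out each library.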

Additional observations from a re-analysis of the deposited data

How the results depend on the processing

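Directions did not reverse in any alternative. Of 753 alternative values for the 60 called pairs of gene and comparison, 676 kept the call, 77 lost it, and 38 pairs were called under every alternative that tested them. With at least 10 counts in every library, which leaves 27 to 30 of the genes to test, it was 10 genes that were called for Model vs Sham, 7 in the acupuncture comparison, 12 for rt-PA vs Sham, 4 for rt-PA+Acu vs Model and 0 for rt-PA+Acu vs Sham. Over all genes, that filter gave 2253 called of 11943, 1657 of 12103, 2358 of 12076, 1544 of 11973 and 239 of 12135, in the same order. At an unadjusted p, 3 passed for rt-PA vs Model and another 3 for rt-PA+Acu vs Sham, beside 1.86% and 4.56% of all genes. DESeq2 called 2 in rt-PA+Acu vs Sham, Tnfsf9 and Tnfrsf12a, beside 422 of 12775 genes in all. Leaving out 1 library at a time gave 14 to 19 calls for Model vs Sham, 0 for rt-PA vs Model, 7 to 15 in the acupuncture comparison (7 without rt-PA+Acu replicate 2 and 9 without rt-PA replicate 1), 17 to 24 in rt-PA vs Sham, 6 to 11 for rt-PA+Acu vs Model, and 0 to 2 for rt-PA+Acu vs Sham. Over all genes these fits called 2511 to 3133, 0 to 3, 1445 to 2510, 2708 to 3206, 1391 to 2305 and 82 to 359. The replicate numbers did not pair libraries of different groups, with correlations of same-numbered deviations from -0.255 to 0.144. With the replicate number as a block, 15, 0, 11, 22, 6 and 0 genes were called, given in the order Model vs Sham, rt-PA vs Model, the acupuncture comparison, then rt-PA vs Sham, rt-PA+Acu vs Model and rt-PA+Acu vs Sham, and the calls lost were Tnfrsf10b (Model vs Sham), Cd40, Tnfaip2 and Tnfsf18 (the acupuncture comparison), Tnfsf18 and Tnfsf4 (rt-PA+Acu vs Model) and Tnfsf9 (rt-PA+Acu vs Sham). Of all genes, the block fits called 2756, 0, 1862, 2913, 1501 and 194 in that order. Library size alone in place of TMM moved the median of all genes in rt-PA vs Sham to 0.149. Genes with few counts, such as Tnfsf4, Traf1, Cd40 and Ltb, limit what this depth can show, and the cause of the other changes was not tested.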
